A study of Mus musculus with 6 samples.

Results

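The miR-130/miR-301 family was followed through small RNA libraries of mouse fetal liver with and without the miR-144/451 locus. The members were chosen by name and by having a line of counts in the deposited table: mmu-miR-130a-3p, mmu-miR-130b-3p, mmu-miR-301a-3p and mmu-miR-301b-3p with the 5p strands of the same hairpins, written below without the species prefix. All 8 were present, out of 1626 mature miRNAs listed, with 45 to 44066 counts per library. Presence is the only measured value in that rule, although the family was picked with earlier results of these data known. The 3 wild-type (WT) libraries, numbered 1 to 3, and the 3 libraries homozygous for deletion of miR-144/451 (KO), numbered 4 to 6, came from C57BL/6J embryos, each from 5000000 fetal liver cells. The embryonic day, and whether replicates came from separate litters, are not in the labels, so each p rests on the variation among these 6 libraries, and part of that may be technical. The values are read here as miRNA sequencing of total RNA, as the sample labels have it, although HITS-CLIP is named in the text on the series.

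A miRNA hairpin is cut by Drosha and then by Dicer into a duplex of a 5p and a 3p strand, of which 1 usually stays in an Argonaute protein as the guide and the other, the passenger, is mostly degraded. Bases 2 to 8 of the guide, the seed, select target mRNAs, so miRNAs with the same seed share many targets. In this family the guide is the 3p strand. miR-130a is known to decline as megakaryocytes form and to repress anti-angiogenic homeobox genes in endothelial cells, and miR-130b to repress Pparg.

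Sequences were available from RefSeq (GRCm38.p6) for 7 of the 8 members, all but miR-301b-3p. The 3p strands are shown first because their shared seed, in capitals, defines the family.
miR-130a-3p: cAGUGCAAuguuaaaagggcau
miR-130b-3p: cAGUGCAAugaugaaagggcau
miR-301a-3p: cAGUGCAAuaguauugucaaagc
Counted from the 5′ end, miR-130a-3p and miR-130b-3p differ only by U11A and A13G, and so carry the same last 9 bases. miR-301a-3p shares its first 9 bases with both and has a different 3′ part, 10 substitutions from miR-130a-3p and 11 from miR-130b-3p. Only 7 of the 1679 mature miRNAs in the RefSeq table (0.417%) carried this seed. They were the 3p strands shown above with miR-130c, miR-721, miR-6341 and miR-6389. Without a sequence there, miR-301b-3p was not counted.

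The 5p strands do not share a seed with the 3p strands. In the following sequences the capitals mark bases 13 to 19, which in 3 of the 4 spell the reverse complement of the family seed.
miR-130a-5p: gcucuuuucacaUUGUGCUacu
miR-130b-5p: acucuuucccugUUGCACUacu
miR-301a-5p: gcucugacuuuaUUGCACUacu
miR-301b-5p: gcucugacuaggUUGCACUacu
In that stretch miR-130a-5p differs from miR-130b-5p by U16C and G17A. miR-301a-5p and miR-301b-5p share their seed and differ only at U10A, U11G and A12G.

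The 4 hairpins lie at 3 loci (GRCm38, GENCODE M21). Mir130a stands alone on the minus strand at chr2:84741115-84741178, outside any other annotated gene. Ypel4 lies 2459 bases to its left and Gm19426 990 bases to its right. Mir130b (chr16:17124061-17124142) and Mir301b (chr16:17124400-17124496) lie 257 bases apart on the minus strand, inside an intron of 2610318N02Rik, which has the same orientation. Mir301, the gene of miR-301a, lies at chr11:87113004-87113089 on the plus strand, in an intron of Ska2, a gene for a kinetochore protein, read in the same direction. Mir301 is thus on the chromosome of the deleted locus, 9.04 Mb from Mir144. Within 10 kb of each hairpin the annotation held no other miRNA hairpin apart from the Mir130b and Mir301b pair. The hairpins of the most abundant member and of the member with the largest difference between genotypes are printed here with both mature strands in capitals.
Mir130b: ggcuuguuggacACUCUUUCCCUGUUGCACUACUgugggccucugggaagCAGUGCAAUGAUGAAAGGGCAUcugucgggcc
Mir301: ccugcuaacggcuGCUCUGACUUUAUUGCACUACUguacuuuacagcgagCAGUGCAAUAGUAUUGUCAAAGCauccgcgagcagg

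The libraries held 16243894 to 27089133 miRNA counts. The deleted locus took 17.6% to 24.1% of counts in WT and 0.0214% to 0.0231% in KO. Because its loss enlarges the share of every other miRNA, levels are given in CPM (counts per 1000000 counts in the library) after TMM scaling, which sets the typical miRNA equal between libraries: for the 873 tested miRNAs that do not come from the locus, the median log2 fold of KO over WT was -0.01 after TMM and 0.34 with scaling to library totals alone. Folds below are relative to that typical miRNA. Hepatocyte miRNAs varied within each genotype, with a summed level (miR-122-5p, miR-192-5p, miR-194-5p and miR-802-5p) of 33936 to 131605 CPM in WT and 42258 to 102326 CPM in KO. All 4 were detected, as were erythroid miR-486a-5p and pan-blood miR-142a, so the labelled tissue was matched by its markers. In whole tissue, fewer cells of a type and less RNA per cell cannot be told apart.

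The family was a moderately abundant one. Its 8 members together took 0.357%, 0.315% and 0.304% of all miRNA counts in WT libraries 1 to 3 and 0.489%, 0.438% and 0.456% in KO libraries 4 to 6 (the 95% Wilson interval, which covers counting error only, was 0.354% to 0.360% for WT library 1 and 0.485% to 0.492% for KO library 4), or 0.325% ± 0.028 and 0.461% ± 0.0256 (SD, n = 3 each). These shares rise with the loss of the locus alone. Set over the counts outside the locus, WT libraries 1 to 3 had shares of 0.470%, 0.383% and 0.381%, the KO shares changed by less than the digits shown, and WT library 1 then lay among the KO libraries.

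In WT the 3p strands stood in the order miR-130b, miR-301a, miR-130a and miR-301b. Small RNA reads span the whole mature miRNA, so CPM need no correction for length. Whether different strands were captured equally well was not tested, so orders and shares between strands, here and below, are those of counts. miR-130b-3p averaged 1679 ± 276 CPM, miR-301a-3p 881 ± 59.0, miR-130a-3p 584 ± 60.1 and miR-301b-3p 137 ± 17.0 (SD, n = 3). They ranked 81, 90, 132 and 214 of 876 tested miRNAs by mean CPM over all libraries. In WT no library of a higher-ranked 3p strand overlapped those of the next. In KO miR-130b-3p and miR-301a-3p overlapped, at 1560.2 ± 160 and 1371 ± 135 CPM, while miR-130a-3p (549 ± 76.1) and miR-301b-3p (153 ± 12.2) stayed apart from their neighbours.

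**Figure D1:**
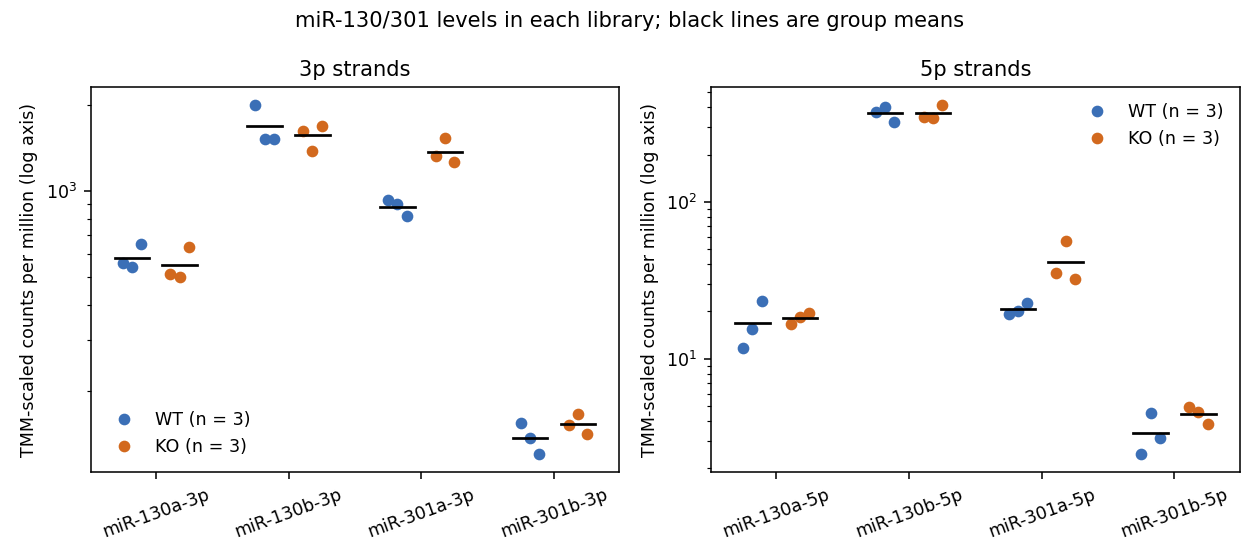
TMM-scaled CPM (log axes) of the 3p strands (left) and 5p strands (right) in the 3 WT and 3 KO libraries, where each point is 1 library and each black line a mean. The KO points of miR-301a-3p and miR-301a-5p lie above the WT points, while the groups overlap for the other 6 strands.

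miR-301a, the Ska2 intronic member, was the hairpin whose strands were higher in every KO library. miR-301a-3p stood at 929.8, 897.7 and 815.4 CPM in WT and at 1327, 1523 and 1264 CPM in KO, in library order. The lowest KO library was above the highest WT library. The log2 fold was 0.64 (SE 0.14), or 1.56-fold, and the edgeR quasi-likelihood test with Benjamini-Hochberg adjustment over all tested miRNAs did not call it (adjusted p = 0.143, unadjusted 0.00309). Outside the locus 14 miRNAs had a smaller p, and 88.8% had a lower fold.

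The passenger strand miR-301a-5p stood at 19.4, 20.3 and 22.5 CPM in WT and 35.3, 56.6 and 32.0 CPM in KO. These groups did not overlap either, and KO library 5 stood above the other KO libraries. The log2 fold was 0.99 (SE 0.26), 1.99-fold, with an edgeR Benjamini-Hochberg adjusted p of 0.21 (unadjusted 0.00728). Without KO library 5 the log2 fold was 0.68 (edgeR adjusted p = 0.506). The values rest on 355 to 1025 counts per library for the 5p strand and 16289 to 32999 for the 3p strand.

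miR-130b-3p, the most abundant member, stood at 1998, 1521 and 1518 CPM in WT and 1612, 1380.5 and 1689 CPM in KO. WT library 1 was the highest of all, and the others overlapped across genotypes. The log2 fold was -0.11 with an SE of 0.17 (adjusted p = 0.87 by edgeR and Benjamini-Hochberg). Without WT library 1 it was 0.04. miR-130b-5p stood at 371.7, 403.3 and 321.2 CPM in WT and 346.6, 343.2 and 415.2 CPM in KO, a log2 fold of 0.01 (SE 0.17; edgeR adjusted p = 0.999).

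miR-301b is encoded next to miR-130b and has the same orientation. miR-301b-3p stood at 154, 137.3 and 120.04 CPM in WT and 152.1, 165 and 141 CPM in KO, with a log2 fold of 0.16 and an SE of 0.18 (adjusted p = 0.809 by edgeR and Benjamini-Hochberg). Without WT library 3, the lowest, its log2 fold was -6.9e-05. miR-301b-5p was the scarcest member, with 45, 109 and 62 counts in WT and 97, 83 and 100 in KO. Its levels of 2.46, 4.52 and 3.10 CPM in WT and 4.89, 4.58 and 3.83 CPM in KO overlapped between genotypes (log2 fold 0.40, SE 0.28; edgeR adjusted p = 0.631).

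miR-130a-3p, from chromosome 2, stood at 559.9, 539.5 and 652 CPM in WT and 510.2, 500.5 and 637 CPM in KO. The highest library of each genotype, WT library 3 and KO library 6, was also the highest of its genotype in the summed hepatocyte miRNAs, at 131605 and 102326 CPM, in the endothelial pair, at 10523 and 11046 CPM, and in the 4 mesenchymal miRNAs, at 3043 and 2887 CPM. The lymphoid pair miR-150-5p and miR-155-5p was also highest there, at 210.3 and 167 CPM. In the same libraries pan-blood miR-142a (28584 and 25848 CPM) and erythroid miR-486a-5p (43832 and 49709 CPM) were lowest of their genotype. The summed muscle miRNAs were lowest there too (14.4 and 13.3 CPM), and myeloid miR-223-3p was lowest in WT library 3 but not in KO library 6. The part of any of these cell types in the level of miR-130a-3p was not tested. The log2 fold was -0.09 with an SE of 0.17 (adjusted p = 0.916 by edgeR and Benjamini-Hochberg). miR-130a-5p stood at 11.7, 15.5 and 23.2 CPM in WT and 16.6, 18.4 and 19.5 CPM in KO, with all KO values inside the WT range (log2 fold 0.11, SE 0.28; edgeR adjusted p = 0.964).

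Across the family 0 of 8 members were called by edgeR at an adjusted p under 0.05, where 0.458% of the miRNAs outside the locus were called higher and 0% lower. At an unadjusted p under 0.05 the miR-301a strands alone were higher, 2 of 8, against 9.62% of all tested miRNAs higher and 1.37% lower. KO values all above WT values were likewise found for 2 of 8 members, both from the miR-301a hairpin, against 15.9% of all tested miRNAs. No member had all KO values below all WT values, where 5.61% of tested miRNAs did. Of the 8 folds 6 were above 0 and 2 below (all 8 above with no scaling factor), with a median of 0.14, beside 416 above and 457 below and a median of -0.01 for the 873 tested miRNAs outside the locus. DESeq2 and limma-voom, used as alternatives, also called 0 of the 8, where they called 0.643% and 0.573% of tested miRNAs higher and 0.129% and 0% lower.

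**Figure D2:**
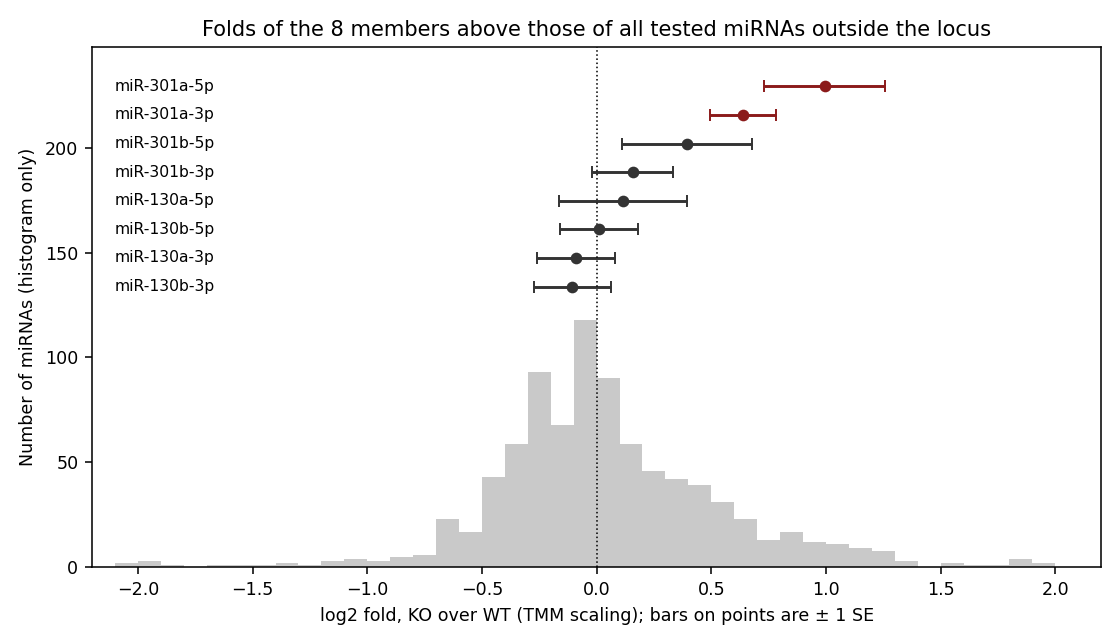
Log2 fold of KO over WT for the 8 members (points, with 1 SE either side) above a histogram of the folds of the 873 tested miRNAs outside the locus, of which 6 lie beyond the axis. The miR-301a strands (red), at 0.64 and 0.99, lie in the upper part of the distribution and the other members between -0.11 and 0.40.

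The calls for miR-301a depended on the scaling and the model. With no scaling factor, which leaves the shift of 0.34 in every fold, miR-301a-3p had a log2 fold of 0.9995 (edgeR Benjamini-Hochberg adjusted p = 0.0217) and miR-301a-5p one of 1.35 (0.0315), in a fit that called 6.64% of tested miRNAs higher. With miR-122-5p as a covariate for hepatocyte RNA, miR-301a-3p was called (log2 fold 0.63, edgeR adjusted p = 0.0223), in a fit that called 1.72% higher, and miR-301a-5p was not (0.99, adjusted p = 0.1). When any 1 library was left out, the fold of miR-301a-3p lay between 0.52 and 0.68, with edgeR adjusted p of 0.322 to 0.747.

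**Figure D3:**
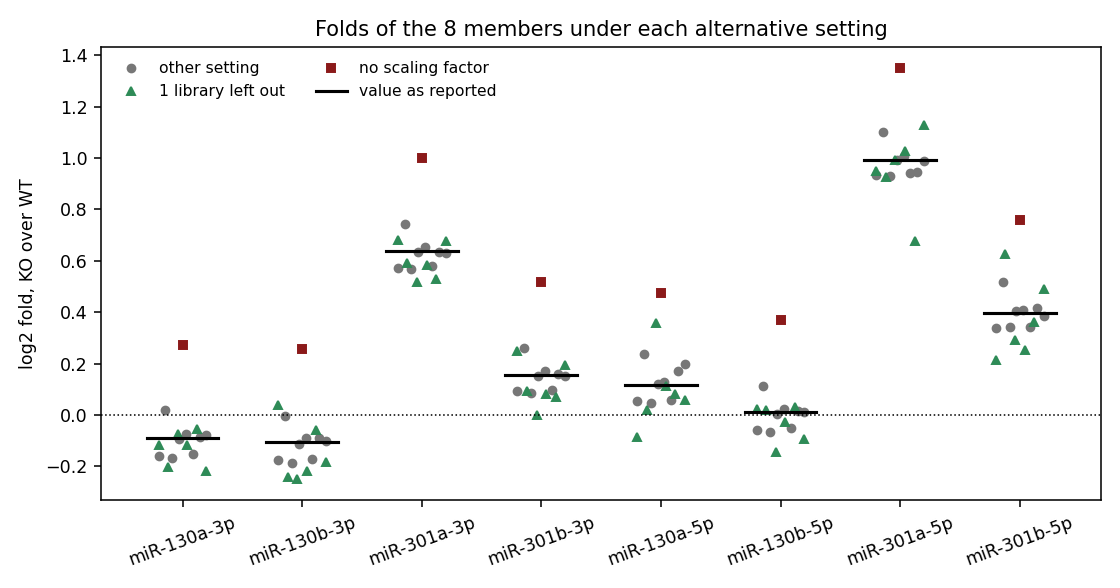
Log2 fold of KO over WT for each member under the 15 alternative settings (points) and as reported (black lines). Both miR-301a strands stay above 0 in every setting, from 0.52 to 0.9995 for the 3p strand and 0.68 to 1.35 for the 5p strand, and dropping the scaling factor (red squares) lifts all 8 folds.

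Ratios between 3p strands within a library do not depend on the scaling. The ratio of miR-301a-3p to miR-130b-3p was 0.465, 0.590 and 0.537 in WT and 0.823, 1.10 and 0.749 in KO. In KO library 5 miR-301a-3p was the most counted member. Its ratio to miR-130a-3p was 1.66, 1.66 and 1.25 in WT and 2.60, 3.04 and 1.99 in KO, and to miR-301b-3p 6.04, 6.54 and 6.79 in WT and 8.72, 9.20 and 8.96 in KO. All 3 ratios were higher in every KO library than in every WT library, by 0.73, 0.73 and 0.47 on the log2 scale. They share miR-301a-3p, whose own levels did not overlap between genotypes, and so are not 3 separate results. Of the tested miRNAs outside the locus, 15.9% had KO levels all above WT levels. That share is for levels of single miRNAs, and none was computed for ratios between miRNAs.

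For each of these 3 ratios the exact two-sided permutation p was 0.1, and no smaller value is possible with 3 libraries in each genotype. The other 3 ratios among the 3p strands overlapped between genotypes. The ratio of the neighbours miR-130b-3p and miR-301b-3p was 12.97, 11.1 and 12.6 in WT and 10.6, 8.34 and 11.96 in KO (exact two-sided permutation p = 0.2), and those of miR-130a-3p to the chromosome 16 pair gave exact p of 0.4 (miR-301b-3p) and 1 (miR-130b-3p). This permutation test therefore cannot reach 0.05 for any ratio. The ratios, which were computed after the levels had been seen, are given as a description (smallest Benjamini-Hochberg adjusted exact p over the 6 ratios, 0.2). How reads that match 2 near-identical strands were assigned is not described, so the split of counts between such strands is uncertain. miR-130a-3p and miR-130b-3p differ at only 2 bases. The sequence of miR-301b-3p was not available, so how far this touches its ratio to miR-301a-3p could not be judged.

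**Figure D4:**
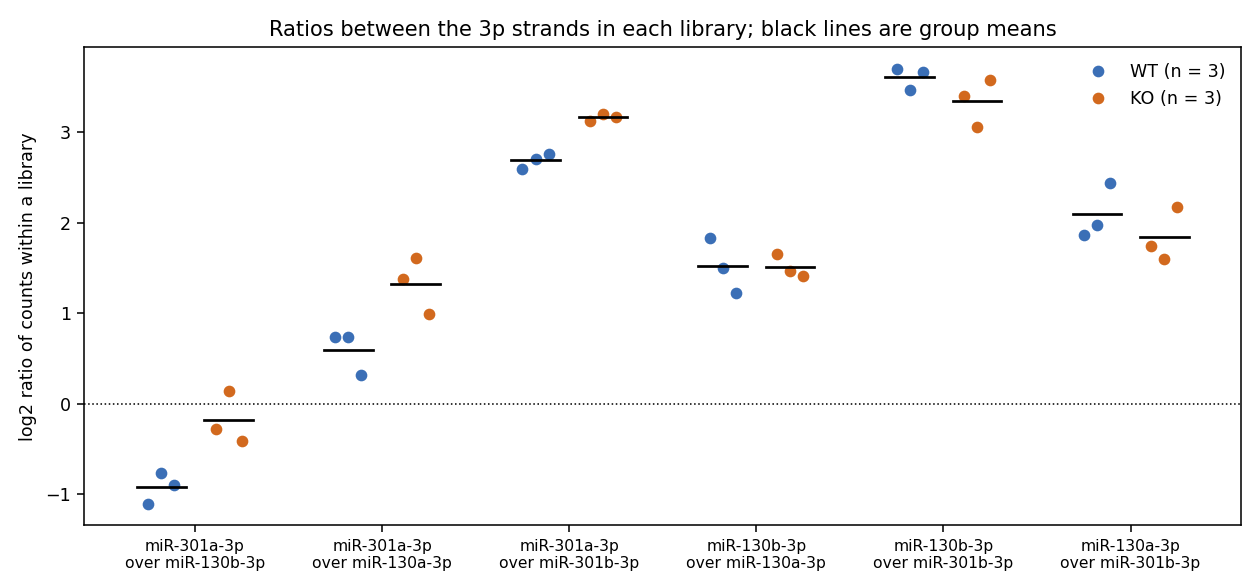
Log2 ratio of the counts of each pair of 3p strands in the 3 WT and 3 KO libraries, where each point is 1 library and each black line a mean. The 3 ratios with miR-301a-3p on top are higher in all KO libraries than in all WT libraries, by 0.47 to 0.73, and the groups overlap for the other 3.

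Put as a share of the 4 guide strands, miR-301a-3p went from 26.9% ± 1.83 in WT to 37.8% ± 4.47 in KO and miR-130b-3p from 51.0% ± 3.38 to 42.9% ± 3.67 (SD, n = 3 each). miR-130a-3p made up 17.9% ± 2.85 and 15.1% ± 1.72, and miR-301b-3p 4.18% ± 0.288 and 4.21% ± 0.427. The summed level of the 4 guides was 3642, 3096 and 3105 CPM in WT and 3601, 3570 and 3731 CPM in KO. WT library 1 lay among the KO libraries, and the summed means differed by 0.15 on the log2 scale.

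The hairpins differed in the share of their counts that came from the passenger strand. By mean level, miR-130b-5p (365 CPM in WT, 368 in KO) stood above the guide miR-301b-3p (137 and 153 CPM). Libraries of these strands did not overlap in either genotype. From miR-130b the 5p strand made up 15.7%, 21.0% and 17.5% of the hairpin's counts in WT and 17.7%, 19.9% and 19.7% in KO (95% Wilson intervals within 0.443 percentage points). From miR-301a it was 2.04%, 2.21% and 2.69% in WT and 2.60%, 3.58% and 2.47% in KO, from miR-130a 2.05%, 2.78% and 3.44% in WT and 3.15%, 3.55% and 2.97% in KO, and from miR-301b 1.57%, 3.18% and 2.52% in WT and 3.12%, 2.70% and 2.64% in KO. The passenger share of miR-130b was above that of the other 3 hairpins in all 6 libraries, although Mir301b is its neighbour. Among 263 hairpins whose strands each averaged 10 counts or more, 62.7% had a smaller minor-strand share than miR-130b, and 30.0%, 33.5% and 30.8% a smaller share than miR-301a, miR-130a and miR-301b.

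Strand use did not pass the test between genotypes in any of the 4 hairpins. The log2 fold of the 5p to 3p ratio was 0.31 (SE 0.21) for miR-301a, 0.26 (SE 0.23) for miR-130a, 0.27 (SE 0.29) for miR-301b and 0.11 (SE 0.18) for miR-130b, with limma Benjamini-Hochberg adjusted p of 0.849, 0.907, 0.945 and 0.947. WT and KO values overlapped for all 4, where 4.94% of hairpins had all KO ratios above all WT ratios and 7.22% all below. Of the 263 hairpins limma called 0 (0%), with 5.7% at an unadjusted p under 0.05. For miR-301a, the higher level in KO was therefore seen in both strands, with no call on the balance between them.

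**Figure D5:**
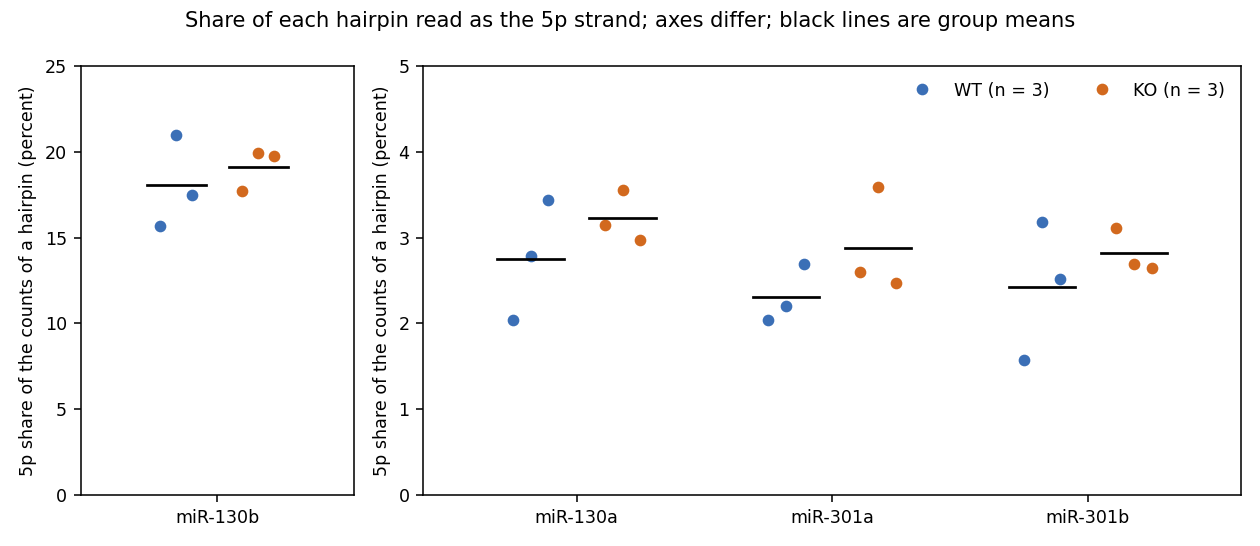
Share of each hairpin's counts that came from the 5p strand, in percent, for the 3 WT and 3 KO libraries, where each point is 1 library and each black line a mean, and the panels have different axes. miR-130b lies between 15.7% and 21.0%, the other hairpins between 1.57% and 3.58%.

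The other listed miRNAs with the family seed were at or near 0. They are shown because they would add to the same target set.
miR-130c: cAGUGCAAuguuccaaggugug
miR-6341: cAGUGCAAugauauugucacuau
miR-6389: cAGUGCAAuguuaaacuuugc
miR-130c had 0 counts in all 6 libraries, and the limit that this allows, 3 counts, equals 0.111 to 0.185 CPM of the library total. miR-6341 had 7 counts over all libraries and miR-6389 had 8, and neither was tested. miR-721, which has the seed in RefSeq, was not among the miRNAs listed with counts, so no level can be given.

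A related family, miR-148 and miR-152, has as its seed the first 7 bases of the miR-130 and miR-301 guides, moved by 1 base, as the capitals show.
miR-148a-3p: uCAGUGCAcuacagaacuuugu
miR-148b-3p: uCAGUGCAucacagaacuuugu
miR-152-3p: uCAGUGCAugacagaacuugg
miR-148b-3p stood at 2093, 1808 and 1451 CPM in WT and 2740.5, 2999 and 2443 CPM in KO, without overlap (log2 fold 0.61, SE 0.18, adjusted p = 0.234 by edgeR and Benjamini-Hochberg). Such a lack of overlap, with KO higher, was found for 15.9% of tested miRNAs outside the locus. miR-148a-3p and miR-152-3p had log2 folds of -0.26 (SE 0.19) and -0.20 (SE 0.35), with overlapping groups.

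Around Mir301 on chromosome 11 the nearest tested miRNAs, chosen after their values were seen, were the following. miR-21a-5p, about 529 kb from Mir301, had a log2 fold of 0.02 (SE 0.12), and miR-142a-3p, about 644 kb away on the other side, one of 0.04 (SE 0.18). Their opposite strands stood at -0.01 (miR-21a-3p, SE 0.21) and 0.01 (miR-142a-5p, SE 0.16). The edgeR Benjamini-Hochberg adjusted p was 0.999 for all 4.

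The members did not share a profile over the libraries. The miRNAs most like each guide were sought by Pearson r of log2 CPM over the 6 libraries among the 532 tested miRNAs that averaged 100 counts or more, and are given as a description, since the libraries share genotype and cell makeup and many candidates were searched. An r above 0.9 was reached by 35 of the 532 for miR-301a-3p, 27 for miR-130a-3p, 11 for miR-301b-3p and 4 for miR-130b-3p. For miR-301a-3p the most like were miR-98-5p, a let-7 relative (r = 0.991), miR-3068-5p (0.987) and the hypoxia-induced miR-210-3p (0.985). All 3 had levels without overlap between genotypes: miR-98-5p stood at 871, 901 and 846 CPM in WT and 1216, 1362 and 1199.8 CPM in KO, and miR-210-3p at 889.8, 876 and 684 CPM in WT and 1599, 1663 and 1455 CPM in KO. They were picked for likeness to miR-301a-3p, whose own groups did not overlap, so their lack of overlap is not a separate result. KO levels all above WT levels were found for 15.9% of tested miRNAs outside the locus.

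For miR-130a-3p the most like were miR-375-3p (r = 0.979), miR-668-3p (0.971) and miR-125a-5p (0.96). Like miR-130a-3p, miR-125a-5p was highest in WT library 3 and KO library 6, at 1050.0 and 792 CPM, and at 297 to 447 CPM in the other 4. For miR-130b-3p they were miR-450a-5p (0.959), miR-10b-5p (0.924) and the neural miR-9-5p (0.911). The latter pair peaked in WT library 1, at 332 and 424 CPM, and stood at 29.6 to 92.9 and 16.3 to 93.5 CPM elsewhere; without that library r was 0.713 for both (n = 5). WT library 1 also held 400.3 CPM of the muscle miRNAs miR-1a-3p, miR-133a-3p and miR-206-3p, against 13.3 to 83.5 CPM in the other libraries. The part of such RNA in the miR-130b-3p level was not tested.

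For miR-301b-3p the most like were miR-3098-5p (0.978), miR-331-5p (0.969) and miR-106b-5p, of a cluster that promotes proliferation (0.956). Between members, miR-301a-3p and miR-301a-5p had r = 0.929 and miR-301a-3p and miR-301b-3p r = 0.747, whereas the clustered miR-130b-3p and miR-301b-3p had r = 0.0807. miR-130a-3p ran against miR-301b-3p (r = -0.79). How reads that match near-identical strands were assigned is not described, so r between members may be touched by it. miR-130b-3p was highest in WT library 1, and r between members was not computed without that library.

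Marker miRNAs of other cell types were set beside the miR-301a difference. The summed endothelial level (miR-126a, both strands) was 7323 to 10523 CPM in WT and 7734 to 11046 CPM in KO, and the 4 mesenchymal miRNAs summed to 2224 to 3043 and 1978 to 2887 CPM. The myeloid miR-223-3p stood at 15316 to 20383 CPM in WT and 8636 to 16013 CPM in KO. No marker outside the locus was called by edgeR. These sums overlapped between genotypes, as did the hepatocyte, pan-blood and muscle sums. The lymphoid pair miR-150-5p and miR-155-5p did not overlap, at 189.6 to 210.3 CPM in WT and 134 to 167 CPM in KO. Among single tested miRNAs outside the locus, 5.61% had all KO values below all WT values, and no such share was computed for sums. Of the erythroid markers only miR-486a-5p lies outside the deleted locus, and it overlapped at 43832 to 82223 CPM in WT and 49709 to 69770.5 CPM in KO. The fit with miR-122-5p concerned hepatocyte RNA only. miR-122-5p itself overlapped between genotypes, at 29323 to 117798 CPM in WT and 37308 to 92264 CPM in KO. The part of cell makeup in the miR-301a difference was not tested.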

How the data were processed

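Mature miRNAs were counted in 6 libraries. Per the submitters' processing notes reads were trimmed with cutadapt; the sources used here do not name the aligner, annotation release or build, or say how reads matching several miRNAs were counted. The deposited table gives raw counts per mature miRNA and, as the authors' percent, each count over its library's total. Of 1626 miRNAs, 61 had 0 counts throughout, and edgeR's filterByExpr kept 876. Counts were tested in R 4.3.3 with edgeR 4.0.16 (TMM, glmQLFit, glmQLFTest) on the whole table, with Benjamini-Hochberg adjustment and calls under 0.05; SE is the absolute log2 fold over the square root of F. Strand ratios, log2((5p + 1)/(3p + 1)), were tested with limma 3.58.1 (trend) over 263 hairpins. DESeq2 1.42.0 and limma-voom were alternatives. Scripts were tested on simulated data. Within-group libraries were not duplicates (chi-square per degree of freedom 152 to 2335). The miRNAs named were the members, their seed and shifted-seed relatives, hairpins within 10 kb, the locus, the marker miRNAs, and the 3 most correlated miRNAs per guide; miR-21a and miR-142a, as neighbours of Mir301 within 1 Mb, were added after their values were seen. The members, lists and marker miRNAs were chosen with earlier results of these data known. The ratios between guides were added after the values were seen.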

Additional observations from a re-analysis of the deposited data

How the results depend on the processing

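The directions of miR-301a-3p, miR-301a-5p and miR-301b-5p, and of the strand ratios of miR-130a and miR-301a, held in all alternatives run. With no scaling factor the log2 folds of miR-130a-3p and miR-130b-3p turned to 0.27 and 0.26, miR-301a-3p and miR-301a-5p were called (0.9995 and 1.35) and 58 miRNAs were called higher. Upper-quartile scaling turned miR-130a-3p to 0.019. miR-130b-5p turned to -0.060 with RLE scaling, to -0.067 with the locus removed before scaling and to -0.053 with DESeq2. With miR-122-5p as a covariate miR-301a-3p was called (0.63), and 15 miRNAs were called higher and 1 lower; DESeq2 called 10 and 2, against 4 and 0 in edgeR as reported, and RLE, upper-quartile and locus-free scaling 1 higher each. Leaving out 1 library gave 0 to 1 called higher, and log2 folds of -0.25 to 0.039 for miR-130b-3p, -0.086 to 0.36 for miR-130a-5p, -6.9e-05 to 0.25 for miR-301b-3p and -0.14 to 0.033 for miR-130b-5p; strand ratio folds were -0.0052 to 0.25 for miR-130b and -0.014 to 0.50 for miR-301b. The cause of these reversals was not tested. Over counts outside the locus the WT family share was 0.411%. No paired analysis was possible because the genotypes share no replicate numbers. miR-301b-5p, with 45 to 109 counts, is the member whose precision depth limits most.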
